A study of Mus musculus with 4 samples.

Results

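A set of 9 interferon-stimulated genes was followed in the adrenal gland of male mice at 2 months of age, in V1aKO mice, which lack the V1a vasopressin receptor, and in wild-type (WT) mice. The members were Ifit1, Ifit2, Ifit3, Isg15, Irf7, Irf9, Stat2, Gbp2 and Gbp3, taken by name, with every probe set annotated to exactly 1 of them. This gave 10 of the 45037 probe sets of the array and covered 8 of the 9 genes, out of 18193 genes with a probe set of their own. Isg15 was represented only by a probe set annotated to Isg15 and Gm9706 together, so no value is given for it. A probe set is a group of short oligonucleotides designed to read 1 transcript, and each value is a log2 expression unit, so a difference of 1 is a 2-fold change.

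There were 2 V1aKO arrays and 2 WT arrays, each hybridised with biotin-labelled adrenal RNA of 1 sample on the Affymetrix Mouse Genome 430 2.0 design. Both groups were male and of the same age. The labels give no strain, do not say which part of the receptor gene was removed, and do not say whether the samples came from separate animals or from pools, so the p-values reflect the differences among these 4 samples and possibly nothing more than technical variation. V1a is a Gq-coupled receptor for vasopressin, and the question is how the adrenal transcriptome changes without it.

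Interferons are secreted signals of antiviral defence. Type I interferon binds the receptor pair Ifnar1 and Ifnar2, whose kinases Jak1 and Tyk2 activate Stat2. Stat2 and Irf9 act together in a complex that binds the interferon response element in target promoters. Type II interferon acts through Ifngr1 and Ifngr2. Many target genes are read at a low level in tissues without infection, and Irf7, Irf9 and Stat2 are both parts and targets of the pathway.

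Markers of the labelled organ were read at a high level. The 8 cortex markers, among them Star and Cyp11a1 of steroid synthesis, averaged 12.92 and 12.88 on the V1aKO arrays and 12.99 and 13.01 on the WT arrays. Avpr1a, the targeted gene, lay near the lowest value of the table (2.30) on all arrays, at 2.31 to 2.60 over its 2 probe sets, and so does not check the genotype labels. WT array 1 stood apart: it correlated with the other arrays at 0.919 to 0.924 over the 17228 tested probe sets, while the other 3 correlated with each other at 0.974 to 0.986. A 2-fold gap lay between V1aKO array 1 and V1aKO array 2 in 1.97% of tested probe sets and between the WT arrays in 15.8%. WT array 1 also carried liver transcripts. The 4 liver markers read (of 5 listed) averaged 2.59 and 2.62 on the V1aKO arrays, against 7.36 on WT array 1 and 2.47 on WT array 2, with Alb, serum albumin, at 2.43 on both V1aKO arrays and at 8.86 and 2.42 on WT arrays 1 and 2. Differences of the members are therefore also given against each WT array alone where it matters.

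Promoters of 5 of the 8 genes with values held the letters of the interferon response element, which was searched as a pair of GAAA with any 2 bases (NN) between them, or on the other strand a pair of TTTC spaced the same way. The windows, from RefSeq on the mouse assembly GRCm38.p6, run from 250 bases before to 50 bases after an annotated start. Of all 27025 genes with such a window, 3.99% held the letters in any of their windows on either strand, and of all 32851 windows 3.44% did. They are shown 5′ to 3′ on the gene's strand because the element that Stat2 and Irf9 bind has these letters, and because the genes holding them differed over the arrays. Binding at these matches was not tested. Ifit1 and Ifit3 gave the same order of arrays. Stat2 (1450403_at) and Gbp3 gave another, highest on V1aKO array 1 and lowest on WT array 1. In Stat2 the WT arrays were nearly equal, both at 3.89. The Gbp2 probe sets were highest on V1aKO array 2 and lowest on WT array 2. Whether the matches bear on these patterns was not tested. Capitals mark the matches, and the pair in Gbp3 overlaps.
Ifit1, chr19:34640639-34640938, plus strand: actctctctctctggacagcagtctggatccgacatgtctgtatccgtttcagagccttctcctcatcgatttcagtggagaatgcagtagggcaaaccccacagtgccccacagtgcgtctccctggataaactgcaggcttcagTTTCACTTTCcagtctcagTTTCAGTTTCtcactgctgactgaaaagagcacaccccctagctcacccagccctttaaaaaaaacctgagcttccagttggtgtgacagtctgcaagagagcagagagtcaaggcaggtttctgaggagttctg
Ifit3, chr19:34583279-34583578, plus strand: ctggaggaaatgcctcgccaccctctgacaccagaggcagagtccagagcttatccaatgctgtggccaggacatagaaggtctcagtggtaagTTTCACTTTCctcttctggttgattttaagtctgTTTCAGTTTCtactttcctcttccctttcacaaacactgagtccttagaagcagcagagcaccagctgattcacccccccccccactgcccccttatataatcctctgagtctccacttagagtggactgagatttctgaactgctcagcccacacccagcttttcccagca
Stat2, chr10:128270248-128270547, plus strand: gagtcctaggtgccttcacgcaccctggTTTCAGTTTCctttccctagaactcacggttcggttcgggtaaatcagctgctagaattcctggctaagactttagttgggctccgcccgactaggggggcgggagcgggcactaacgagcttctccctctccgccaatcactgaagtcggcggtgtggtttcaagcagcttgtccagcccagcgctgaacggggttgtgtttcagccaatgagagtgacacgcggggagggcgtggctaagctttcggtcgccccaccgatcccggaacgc
Gbp2, chr3:142620413-142620712, plus strand: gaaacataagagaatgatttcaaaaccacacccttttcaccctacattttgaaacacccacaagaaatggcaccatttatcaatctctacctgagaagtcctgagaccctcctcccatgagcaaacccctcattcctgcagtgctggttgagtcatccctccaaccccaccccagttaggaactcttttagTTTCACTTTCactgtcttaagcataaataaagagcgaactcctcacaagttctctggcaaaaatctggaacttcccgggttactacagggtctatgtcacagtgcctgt
Gbp3, chr3:142559794-142560093, plus strand: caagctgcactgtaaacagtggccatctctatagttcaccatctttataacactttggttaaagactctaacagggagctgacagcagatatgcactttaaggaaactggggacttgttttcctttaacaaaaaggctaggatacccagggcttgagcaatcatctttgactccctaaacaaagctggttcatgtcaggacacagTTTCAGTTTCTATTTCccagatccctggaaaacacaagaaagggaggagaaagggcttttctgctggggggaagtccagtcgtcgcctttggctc

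Ifit1 and Ifit3 each held 2 matches, the nearest to the start beginning at base -85 in Ifit1 and at base -122 in Ifit3. Gbp2 held 1, at -59, Gbp3 held 2, at -45 and -39 in the first of its 2 windows, and Stat2 held 1, at -222. All of these were TTTC pairs. Isg15 held 3 overlapping matches, at -78, -72 and -66 as GAAA pairs. No window of Ifit2, Irf7 or Irf9 held these letters, which says nothing of sites outside the window or of other spellings.

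**Figure D1:**
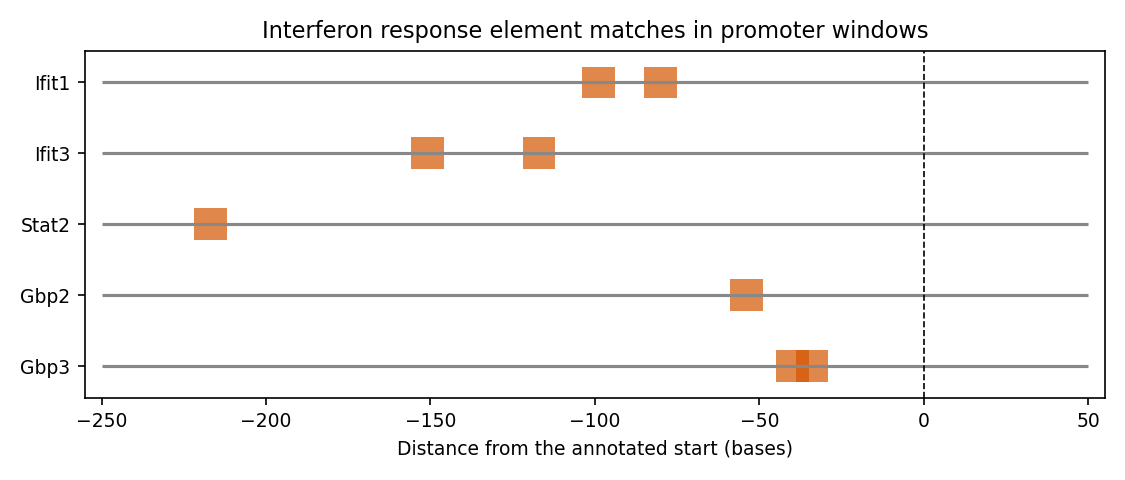
Matches to the interferon response element (orange boxes, 10 bases each) along the promoter windows of 5 genes, against distance from the annotated start in bases (dashed line at 0). Ifit1 and Ifit3 hold 2 separate matches each, Gbp3 holds an overlapping pair close to the start, and the match of Stat2 lies farthest upstream, at -222.

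Irf9, the DNA-binding partner of Stat2, read higher on both V1aKO arrays and gave the smallest p of the genes followed. Its probe set read 6.83 and 6.79 on the V1aKO arrays and 6.16 and 6.19 on the WT arrays. The groups did not overlap, and the gap between the genotypes was larger than the gap between the arrays of either one. The difference was 0.63 (SE 0.16, n = 2 per group, 95% interval 0.19 to 1.07), a 1.55-fold higher mean in V1aKO, with a limma p of 0.0176 and an adjusted p of 0.794, so it did not pass the threshold of 0.05. It was 0.65 against WT array 1 alone and 0.61 against WT array 2 alone, as large without either of them. The unadjusted p was 0.14 and 0.122 without V1aKO array 1 and V1aKO array 2, where 1 V1aKO array is left, and 0.0532 with the replicate number as a block, so that the value under 0.05 was lost in each. Of all tested probe sets, 86.1% differed by less between the genotypes.

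Stat2, which joins Irf9 in the type I response, was dim. Its better-read probe set (1450403_at) read 4.63 and 4.20 on the V1aKO arrays and 3.89 on both WT arrays. The difference was 0.52 (SE 0.22, limma adjusted p = 0.794), and it was 0.31 without V1aKO array 1 and 0.74 without V1aKO array 2. A probe set had to read at least 4 on any 2 arrays to be tested, and this one did so only through the V1aKO arrays, so that a higher V1aKO value was a condition of its being tested. The other probe set (1421911_at) read 3.79 and 3.59 in V1aKO and 3.59 and 3.41 in WT, below the minimum on all arrays, with groups that met at 3.59 and a difference of 0.19. Stat2 lies on chromosome 10, 5.82 Mb from Avpr1a on GRCm38.p6, where DNA of the targeted strain can stay beside the altered gene. Whether it does here was not tested.

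Gbp2 and Gbp3 encode guanylate-binding proteins, GTPases induced mainly by type II interferon that act against intracellular microbes, and lie within 78.0 kb of each other on chromosome 3. Gbp3 read 5.78 and 5.67 on the V1aKO arrays and 4.16 and 5.14 on the WT arrays. Both V1aKO values lay above both WT values, but the WT arrays were themselves 0.98 apart, with WT array 1 the lowest of the 4. The difference was 1.08 (SE 0.39, 95% interval -0.05 to 2.20), a 2.11-fold higher mean in V1aKO, with a limma p of 0.0562 and an adjusted p of 0.794. Against WT array 1 alone it was 1.57 and against WT array 2 alone 0.58, so its size changed with the WT array used.

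The first probe set of Gbp2 (1418240_at) read 6.33 and 6.60 on the V1aKO arrays and 5.99 and 5.93 on the WT arrays, a difference of 0.50 (SE 0.18, limma adjusted p = 0.794) without overlap. The second (1435906_x_at) read 7.58 and 7.67 in V1aKO and 7.58 and 7.47 in WT, a difference of 0.10 (SE 0.16, adjusted p = 0.865) with V1aKO array 1 and WT array 1 at the same value. The 2 probe sets thus shared the direction but not the size. The suffix _x_at marks probes that can also bind related transcripts, and the guanylate-binding proteins are a family of close relatives, so the second reading may not be of Gbp2 alone. A mean over both gave 0.30.

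**Figure D2:**
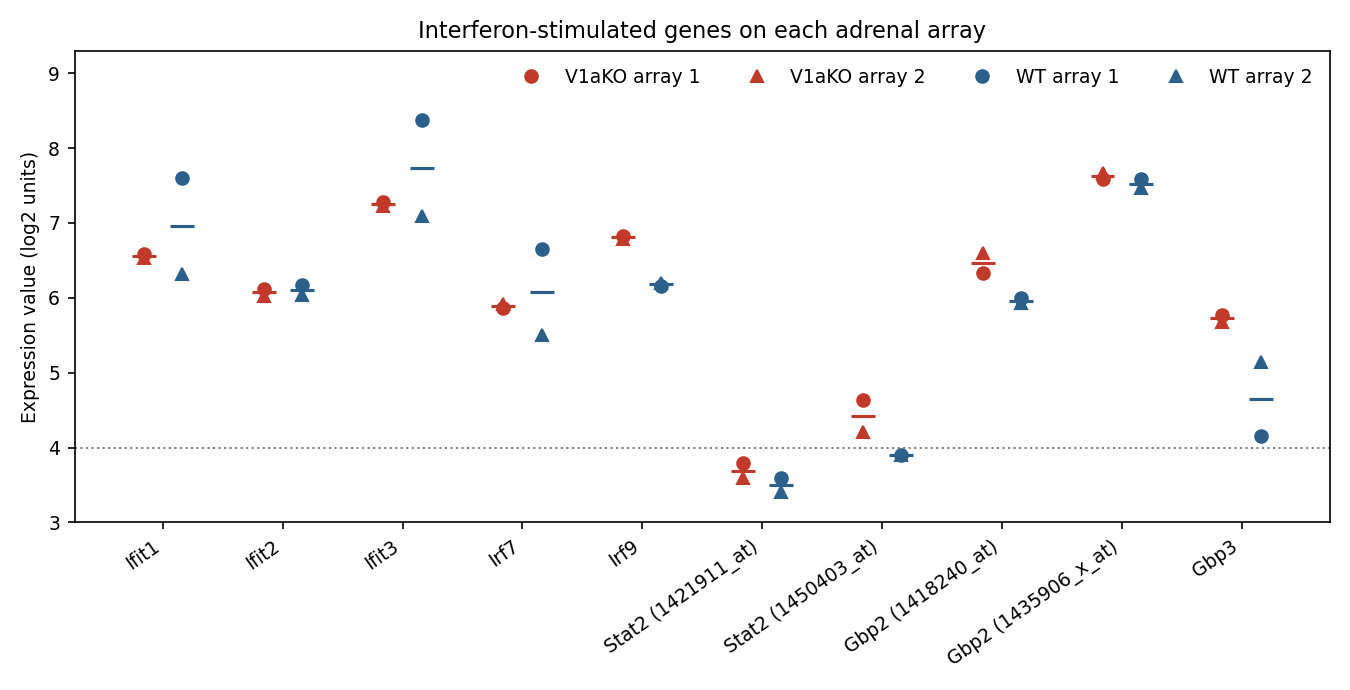
Log2 expression value (vertical axis) of the 10 probe sets on the 2 V1aKO arrays (red, left of each pair) and the 2 WT arrays (blue, right), with circles for array 1, triangles for array 2, short lines for means and a dotted line at the minimum of 4. The V1aKO values of Ifit1, Ifit3 and Irf7 lie between a high WT array 1 and a lower WT array 2, while in Irf9, the better-read Stat2 probe set, the first Gbp2 probe set and Gbp3 both V1aKO arrays lie above both WT arrays.

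The Ifit genes, which encode proteins that bind foreign RNA and curb its translation, lie within 99.5 kb of each other on chromosome 19 and fell into 2 patterns. Ifit1 read 6.59 and 6.53 on the V1aKO arrays and 7.61 and 6.32 on the WT arrays. The V1aKO arrays were 0.06 apart and the WT arrays 1.29 apart, so the groups overlapped, with V1aKO inside the WT range. The difference was -0.40 (SE 0.50, 95% interval -1.82 to 1.02, limma adjusted p = 0.831).

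Ifit3 gave the same order of arrays. It read 7.28 and 7.23 in V1aKO and 8.38 and 7.10 in WT, a difference of -0.48 (SE 0.49, limma adjusted p = 0.806), with 1.28 between the WT arrays. Against WT array 1 alone the differences of Ifit1 and Ifit3 were -1.05 and -1.12, and against WT array 2 alone 0.24 and 0.16, so their direction turned with the WT array used.

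Ifit2 did not share this spread. It read 6.12 and 6.02 on the V1aKO arrays and 6.17 and 6.04 on the WT arrays, a difference of -0.03 (SE 0.16, 95% interval -0.51 to 0.44, limma adjusted p = 0.964). The WT arrays were 0.13 apart and the V1aKO arrays 0.10 apart, and the groups overlapped.

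Irf7, the factor that drives later waves of type I interferon, followed Ifit1 and Ifit3. It read 5.87 and 5.91 in V1aKO and 6.65 and 5.51 in WT, a difference of -0.19 (SE 0.45, limma adjusted p = 0.910). The WT arrays were 1.14 apart, and the V1aKO mean lay 0.76 below WT array 1 and 0.38 above WT array 2. In Ifit1, Ifit3 and Irf7 alike WT array 1 was the highest and WT array 2 the lowest of the 4 arrays, an order found in 18.9% of all tested probe sets. WT array 1 exceeded WT array 2 by more in these 3 genes than in 96.9%, 96.8% and 95.3% of tested probe sets.

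**Figure D3:**
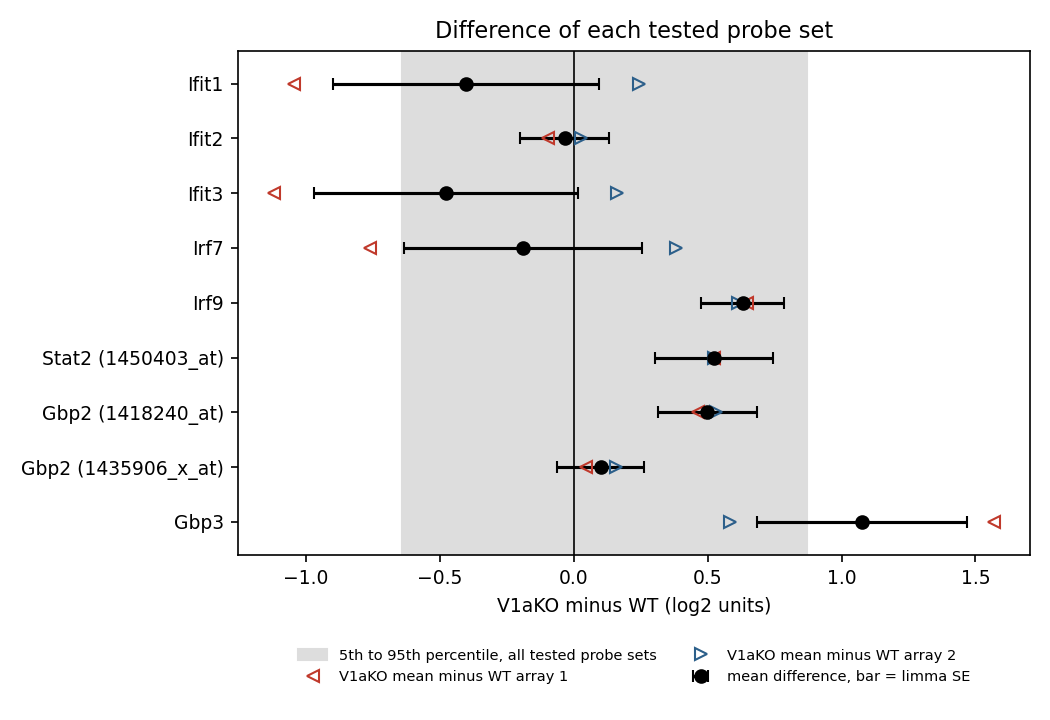
V1aKO minus WT difference in log2 units (horizontal axis) for the 9 tested probe sets, as the mean difference with limma's SE (black) and as the V1aKO mean minus each WT array alone (open triangles), over a grey band from the 5th to the 95th percentile of all tested probe sets. Irf9 gives nearly the same difference against either WT array (0.65 and 0.61), while Ifit1, Ifit3 and Irf7 change sign with the WT array.

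Over the genes followed, none of the 9 tested probe sets passed limma's adjusted threshold, as for 0% of the 17228 over the whole array. By the unadjusted threshold of p under 0.01 with a 2-fold difference it was 0 of 9, beside 0.836% of all. At an unadjusted p under 0.05 it was 1 of 9 (Irf9), beside 5.14% of all. Both V1aKO arrays lay above both WT arrays in 4 of 9, beside 17.4% of all, and below both in 0 of 9, beside 20.0%. Without the Stat2 probe set that was tested only because of its V1aKO values, it was 3 of 8. WT array 1 exceeded WT array 2 by at least 2-fold in 3 of 9, beside 6.98% of all, and the reverse held in 0 of 9, beside 8.82%. The median difference over the 8 genes was 0.03, beside -0.05 over all 10110 tested genes, where the best-read probe set stood for a gene. Without Stat2, left out after seeing the data, the median over the other 7 genes was -0.03.

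That median depended on WT array 1. Without it the median over the 8 genes was 0.31, beside 0.04 over all tested genes, with both V1aKO arrays above WT array 2 in 8 of the 9 probe sets, beside 42.3% of all, and an unadjusted limma p under 0.05 in 3 of 9, beside 12.0% of all. Without WT array 2 the median was -0.03, beside -0.15 over all tested genes, and the unadjusted p was under 0.05 in 5 of 9, beside 37.8% of all, with 3 of 9 past the unadjusted p of 0.01 and 2-fold, beside 8.69%. The single WT array left in these fits has no spread of its own, and that of the V1aKO arrays stands in for it. The 8 probe sets above WT array 2 include that of Stat2, tested only because of its V1aKO values. Both medians over the 8 genes include it too.

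A wider list, which leaves out the 9 members, held 96 genes of the pathway. Of these, 88 had a probe set of their own and 68 were tested. 0 of the 68 passed limma's adjusted threshold, and 2 had an unadjusted p under 0.05 (2 of 68, beside 5.06% of all tested genes). Both V1aKO arrays lay above both WT arrays in 9 and below both in 12, beside 17.1% and 20.5% of all tested genes, and the median difference was -0.07. WT array 1 exceeded WT array 2 by at least 2-fold in 9 of the 68, beside 7.13% of all tested genes, and the reverse held in 2, beside 7.48%. These 2 were Pias1 and Socs3, on the list of receptors, kinases and STAT factors. Their WT array 1 minus WT array 2 was -2.76 and -1.08. None of the 9 was among the 12 tested receptors, kinases and STAT factors, the 4 interferon regulatory factors or the 10 sensors. These numbers are too small to tell 0 from the share of 7.13%. Irf7, an interferon regulatory factor with 1.14 between the WT arrays, is a member and so not on this list.

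None of the 6 named receptor chains and kinases at the head of the pathway passed the test. Ifnar1 and Ifnar2, the type I receptor chains, differed by -0.25 (SE 0.29) and -0.11 (SE 0.17). Ifngr1 and Ifngr2, the type II receptor chains, differed by -0.11 (SE 0.23) and -0.08 (SE 0.18). Jak1 and Tyk2 differed by 0.08 (SE 0.34) and 0.11 (SE 0.19). Their limma adjusted p lay between 0.817 and 0.959, and the arrays of the genotypes overlapped in all 6. Against WT array 1 alone and WT array 2 alone, Jak1 differed by -0.32 and 0.48, Ifnar1 by -0.58 and 0.08, Ifngr1 by -0.34 and 0.12, and Tyk2 by -0.05 and 0.26, so that their direction turned with the WT array used. Of the 12 tested receptors, kinases, STAT factors and their inhibitors, 4 had a higher and 8 a lower mean in V1aKO, with a median of -0.09. Irf1, an early target of type II interferon, read 6.44 and 6.65 on the V1aKO arrays and 7.30 and 6.70 on the WT arrays, a difference of -0.45 (SE 0.28, limma adjusted p = 0.794), which was -0.75 against WT array 1 alone and -0.15 against WT array 2 alone.

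Of 10 tested sensors of foreign nucleic acid and their adaptors, 4 had a higher and 6 a lower mean in V1aKO, with a median of -0.06. Mavs, the mitochondrial adaptor of the RNA sensors, read 9.60 and 9.34 on the V1aKO arrays and 8.40 and 9.05 on the WT arrays, a difference of 0.75 (SE 0.30, limma adjusted p = 0.794), which was 1.07 against WT array 1 alone and 0.42 against WT array 2 alone. Of the 16 genes of this list, 6, Tlr7 and Tlr9 among them, lay under 4 on every array.

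Among 42 other interferon-induced genes tested, 19 had a higher and 23 a lower mean in V1aKO, with a median of -0.06. Cmpk2, a mitochondrial nucleotide kinase, read 6.87 and 7.67 on the V1aKO arrays and 5.47 and 6.29 on the WT arrays, a difference of 1.39 (SE 0.45, limma adjusted p = 0.794). Tap1, a peptide transporter of antigen presentation, read 4.79 and 4.65 in V1aKO and 5.90 and 5.27 in WT, a difference of -0.87 (SE 0.28, limma adjusted p = 0.794). These were the 2 genes of the wider list with an unadjusted p under 0.05, and they went opposite ways. Against WT array 1 alone and WT array 2 alone the differences were 1.80 and 0.97 in Cmpk2 and -1.18 and -0.55 in Tap1. Ifi30, a lysosomal thiol reductase, differed by -0.50 (SE 0.20), Parp12, an antiviral ADP-ribosyltransferase, by 0.64 (SE 0.30) and Irgm2, an immunity-related GTPase, by 0.54 (SE 0.28), all with a limma adjusted p of 0.794. Their size changed with the WT array used, at -0.67 and -0.34 in Ifi30, 0.33 and 0.95 in Parp12 and 0.28 and 0.79 in Irgm2 against WT array 1 alone and WT array 2 alone.

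The order of arrays seen in Ifit1, Ifit3 and Irf7 also occurred among these 42 genes. WT array 1 was the highest of the 4 arrays in 30 of 42 (71.4%), beside 49.5% of all tested genes, and in 18 of them WT array 2 was also the lowest, an order that 20.6% of all genes showed. WT array 1 exceeded WT array 2 by at least 2-fold in 9 of 42, beside 7.13% of all, and the reverse held in 0 of 42, beside 7.48%. The 9 were Bst2, Isg20, Lgals3bp, Lgals9, Oasl2, Psmb9, Psmb10, Usp18 and Xaf1, named after their values were seen. Usp18, which removes Isg15 from proteins, read 5.37 and 5.28 on the V1aKO arrays and 6.38 and 4.59 on the WT arrays. Bst2, which tethers budding virus, read 7.83 and 8.07 in V1aKO and 8.51 and 7.03 in WT. In both the V1aKO arrays lay between the WT arrays.

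The median of the 42 genes was -0.41 when V1aKO was set against WT array 1 alone, beside -0.15 over all tested genes, and 0.29 against WT array 2 alone, beside 0.04. Several classical targets were too dim to compare, with Mx1, an antiviral GTPase, at 2.30 on every array and Cxcl10, a chemokine, at 2.87 to 2.94.

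**Figure D4:**
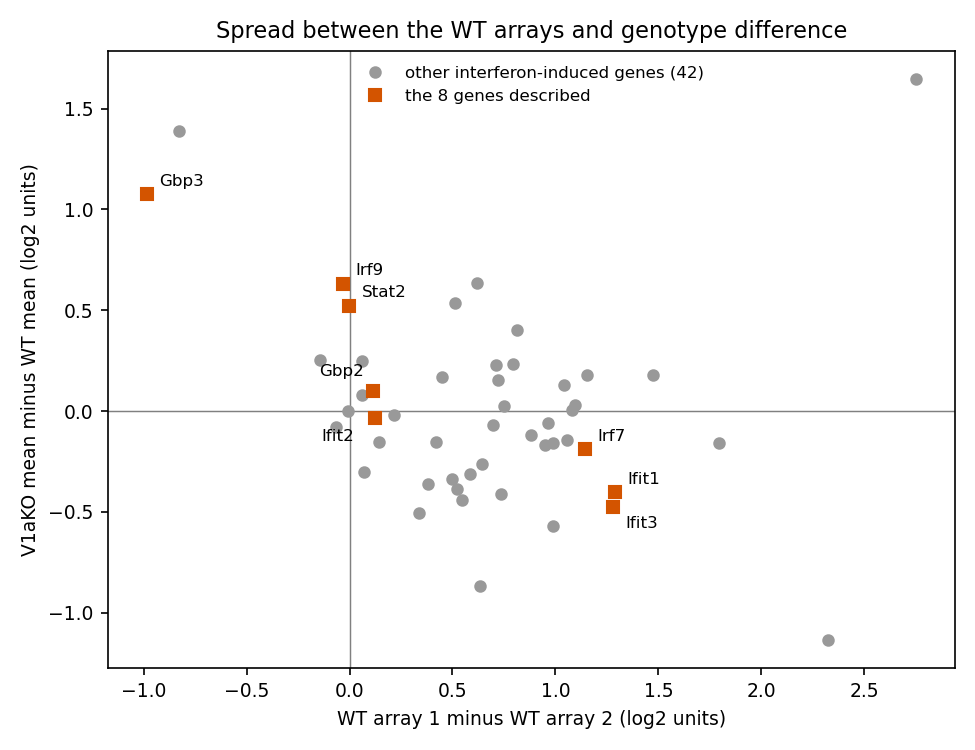
WT array 1 minus WT array 2 (horizontal axis) against V1aKO mean minus WT mean (vertical axis), both in log2 units, for the 8 genes described (orange, best-read probe set) and 42 other interferon-induced genes (grey). Most grey points lie right of 0, with WT array 1 the higher, and scatter on both sides of 0 on the vertical axis. Ifit1, Ifit3 and Irf7 lie with them on the right, and Gbp3 lies on the left.

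Markers of other cells varied over the same arrays, and their part in these results was not tested. The 6 endothelial markers averaged 7.93 and 7.81 on the V1aKO arrays and 8.18 and 7.59 on the WT arrays. The liver markers were high on WT array 1 alone. In bulk RNA of the adrenal, fewer cells of a type and less RNA per cell cannot be told apart.

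Of the 11 macrophage markers tested, 6 had a higher and 5 a lower mean in V1aKO, and 0 passed the adjusted test of limma (0 at an unadjusted p under 0.05). The 12 read averaged 7.38 and 7.77 on the V1aKO arrays and 7.11 and 7.35 on the WT arrays, and C1qb, a complement subunit, weighed on this mean, at 10.46 and 10.54 in V1aKO and 6.31 and 9.97 in WT. Without it, a choice made after seeing the data, the means were 7.10 and 7.52 on the V1aKO arrays and 7.18 and 7.11 on the WT arrays, so the groups overlapped. Both V1aKO arrays lay above both WT arrays in 3 of 11 (Ctss, Cd68 and C1qb), beside 17.1% of all tested genes, and below both in 2 of 11 (Csf1r and Cd14), beside 20.5%. Of 10 lymphocyte markers read, 9 lay under 4 on all arrays, with Cd3d, Cd3g and Cd79a at 2.30 to 2.31. The exception, Ighm, an antibody heavy chain, read 9.65 and 9.39 in V1aKO and 8.85 and 5.98 in WT. Of 4 markers of plasmacytoid dendritic cells, which make type I interferon, 2 lay under 4 on all arrays. Siglech, a defining marker of these cells and among those 2, lay at 2.30 to 2.31. The others, Tcf4 and Bst2, read above 4 on all arrays, and Bst2 is also among the other interferon-induced genes. Whether these cells were present was not tested.

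Chromaffin markers of the medulla were higher on 1 array of each genotype, at 12.19 and 11.33 on the V1aKO arrays and 12.38 and 11.56 on the WT arrays. Adipocyte markers averaged 5.87 and 7.64 in V1aKO and 8.12 and 7.21 in WT. In both lists the means of the V1aKO and WT arrays overlapped. Those of the macrophage markers overlapped without C1qb but not with it. The part of any of these cells was not tested.

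**Figure D5:**
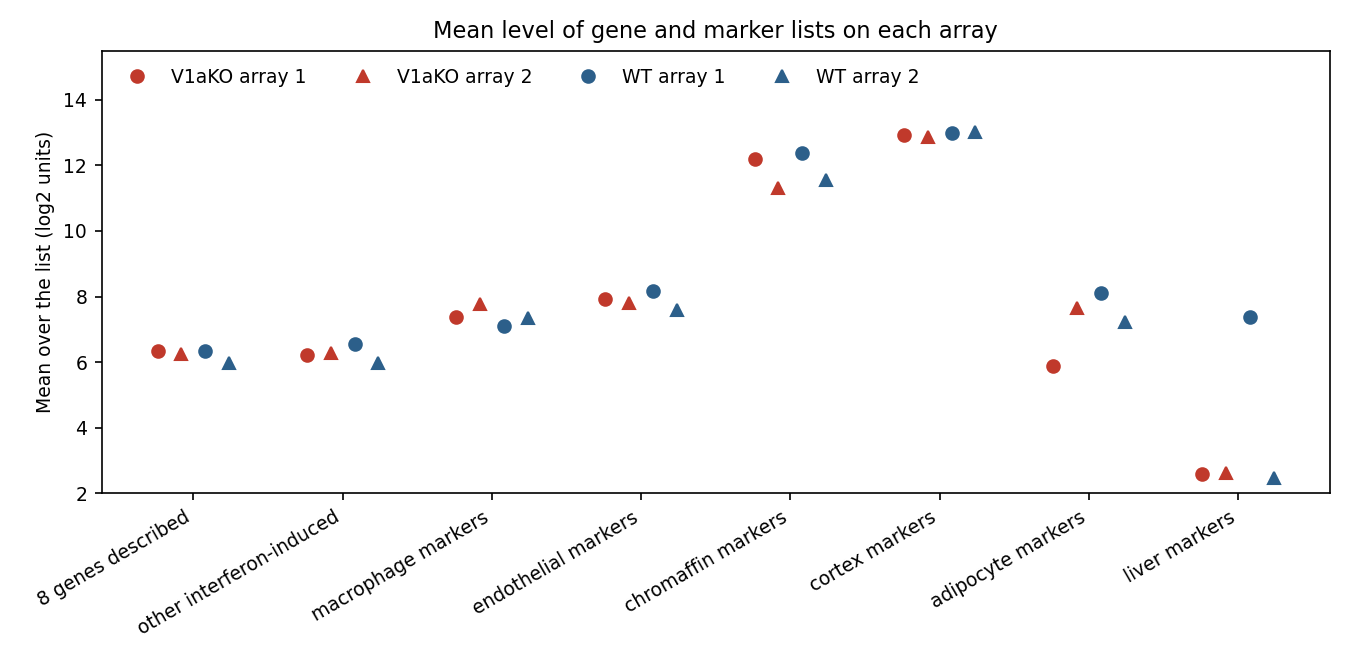
Mean log2 value (vertical axis) over the genes of each list on the 2 V1aKO arrays (red) and the 2 WT arrays (blue), circles for array 1 and triangles for array 2. Liver markers are high on WT array 1 alone (7.36), cortex markers are level over the arrays, and the other interferon-induced genes are highest on WT array 1 and lowest on WT array 2.

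Profiles over the 4 arrays did not single out partners. For Gbp2, read by its brighter probe set (1435906_x_at), which may not be of Gbp2 alone, the nearest non-member genes, by Euclidean distance between values centred on their own mean, were Gab2 (0.00881), Tcof1 (0.0212) and Parp11 (0.0286), and 2320 of 10102 genes lay within 0.3. For Ifit1, added after its values were seen because Isg15 had no value, they were Tbc1d22a (0.0404), Syt11 (0.0455) and Tacc2 (0.0473), with 268 of 10102 genes within 0.3. Tacc2, for example, read 7.55 and 7.52 on the V1aKO arrays and 8.62 and 7.34 on the WT arrays. With only 4 arrays these are likenesses of these samples.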

How the data were processed

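The authors deposited 1 log2 value for each probe set and array. They were computed with GCRMA (Bioconductor 3.14), per the labels' protocols, a method that removes a sequence-dependent background, puts arrays on 1 distribution and merges the probes, so weak probe sets gather near a floor. The log2 scale was read from the values (2.30 to 14.9). The version of GCRMA is not given in the sources used here.

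These values were used as they stand, without the 64 control probe sets. Genes were named from the platform annotation, checked by gene ID (34741 of 34945 single-gene probe sets matched, 0 symbols changed), and none from the 932 probe sets with several genes. Probe sets with a value of 4 or more on any 2 arrays entered the test. limma 3.58.1 in R 4.3.3 (genotype only, eBayes without trend) compared V1aKO with WT over 17228 probe sets, with Benjamini-Hochberg adjustment and 2 residual degrees of freedom. SE and 95% intervals are limma's moderated ones. The number of arrays limits the precision. The fit was tested on simulated data in which both genotypes had the same spread. In the real data the median gap was 0.44 between the WT arrays and 0.15 between the V1aKO arrays. That simulation therefore does not cover an array that stands apart.

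The members, gene lists and tests were chosen with earlier results of these data known. Named were all members, the receptors, kinases and Irf1, and the 6 genes of the wider list with the smallest p. Genes nearest to Gbp2 were named, and Isg15, planned likewise, had no value. Other genes were named after their values were seen. Alternatives were other filters, quantile normalization, centring, a variance trend, the replicate number as a block, plain probe sets, gene means and leaving out each array. The pairing could not be decided from 2 numbers (deviations of same-numbered arrays correlated at 0.154), so the block is an alternative.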

Additional observations from a re-analysis of the deposited data

How the results depend on the processing

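Of 100 member values recomputed under an alternative, 95 kept their direction and 5 reversed, all 5 on leaving out an array. Many of the 95 could not reverse. Other filters, the variance trend, the replicate block and plain probe sets leave a difference as it is. Gene means change it only in Gbp2, the 1 gene with more than 1 tested probe set. Under the alternatives that kept every array, 0 of the 9 probe sets passed the adjusted threshold of limma. Leaving out each array in turn gave -1.05 to 0.24 for Ifit1, -0.10 to 0.029 for Ifit2, -1.12 to 0.16 for Ifit3 and -0.76 to 0.38 for Irf7. The higher value came without WT array 1, and Ifit2 also turned, to 0.02, without V1aKO array 2. Irf9 stayed between 0.61 and 0.65 under every alternative that kept it, while plain probe sets alone leave out Irf7, Irf9 and Gbp3. Leaving out an array also gave a median over member genes of -0.026 to 0.31, a median over interferon pathway genes of -0.34 to 0.11 and one over other interferon-induced genes of -0.41 to 0.29. At an unadjusted p under 0.05 it gave 0 to 5 of 9 member probe sets, beside 0.981% to 37.8% of all tested probe sets, and 1 to 25 of 68 pathway genes, beside 0.841% to 38.0% of all tested genes, the highest counts without WT array 2. It gave 0 to 3 of 9 at p under 0.01 and 2-fold, beside 0.145% to 8.69% of all, 4 to 8 with V1aKO higher and no overlap, beside 26.6% to 42.3%, and 0 to 4 with V1aKO lower and no overlap, beside 30.4% to 51.9%. Stat2 (1450403_at), tested only because of its V1aKO values, was in each of these counts with V1aKO higher. Its difference was 0.31 to 0.74, and the Gbp2 probe sets gave 0.36 to 0.63 (1418240_at) and 0.04 to 0.16 (1435906_x_at). At an unadjusted limma p under 0.05 the member count was 2 of 10 without a filter and 0 of 5 with plain probe sets only. It was 0 of 9 with the replicate block, which kept 0 adjusted calls. The pathway count was 1 of 88 without a filter and 1 of 50 with a filter at 6 log2 units. It was 1 of 53 with plain probe sets only and 5 of 68 with gene means. Both V1aKO arrays lay higher in 2 probe sets with a filter at 6 and in 2 with plain probe sets, where 6 and 5 were left. Stat2 was among the latter 2. For these settings, which keep every array, no share over all tested probe sets or genes is given. Whether the counts exceed that share cannot be read from them. The cause of the other changes was not tested. Differences of probe sets near the floor can be compressed. Whether this applies to Stat2, the dimmest of the tested members, was not tested.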
